A study of Sus scrofa with 30 samples.

Results

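The genes described here are those by which mammary myoepithelial cells are usually known: the basal keratins KRT5, KRT14 and KRT17, the basal transcription factor TP63, the contractile genes ACTA2, MYH11, MYLK, CNN1 and TAGLN, and OXTR, the oxytocin receptor. They were chosen by name, and every transcript of each was taken from the table together with its sum per gene. Of the 10 genes, 8 were found by symbol, with 18 of the 61773 transcripts. No transcript carried the symbol KRT14 or KRT17, so no value is given for these genes.

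Myoepithelial cells form the outer, contractile layer of the mammary alveoli and ducts. During suckling, oxytocin released from the pituitary binds its receptor on these cells. The receptor acts through Gq and phospholipase C, calcium rises, calmodulin activates the myosin light chain kinase encoded by MYLK, and the shortening of actin and myosin filaments ejects the milk. The same contractile genes are also active in smooth muscle and pericytes of blood vessels, and KRT5 and TP63 are also active in the basal layer of the skin.

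The tissue was mammary parenchyma from multiparous half-sibling sows of a Danish Landrace × Yorkshire cross, in 5 groups named for mid-gestation (MG, gestation day 70), late gestation (LG, gestation day 110), early lactation (EL, 2 days after birth), peak lactation (PL, 10 days after birth) and weaning (W2, 2 days after it). None of the sows was described as treated, and the samples come from whole tissue, in which fewer cells of a type and less RNA per cell cannot be told apart. Each stage had 6 samples, of which 3 were nearly identical to one another (a median relative difference of at most 1.85% between them, against 19.6% to 59.8% for the rest) and equal in mean to the other 3 within 0.741%. These were not counted, which left n = 3 per stage and 15 samples. The sample records contradict themselves on MG and EL, as the records titled MG name early lactation as their stage and those titled EL name mid-gestation. The titles were followed here. Milk protein transcripts took 11.3% to 16.4% of the units in the counted samples titled MG and 20.0% to 25.5% in those titled EL, and CSN3, kappa casein, averaged 4657 and 18397 units; these values were not used to assign the groups. The comparisons of PL with all other stages and of W2 with PL are the same under either reading.

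Values are called units: they are normalised for transcript length, and each sample adds up to between 997480 and 1002643, so they are shares of a library. The files used here hold no read counts, so the counting error of the values could not be modelled here. The sample PL 2 stood apart. Milk protein transcripts took 40.8% of its units, against 10.5% to 25.5% in the other 14 samples, and its 20 highest transcripts took 59.9%, against 25.6% to 43.0%. In PL against the other stages, the median log2 fold change over all 26019 genes and loci was -0.47, so a gene with a value of 0 lay above most others. Fold changes are differences of log2(value + 0.5), a scale that understates the changes of low genes. Results are therefore given as deposited, after scaling each sample by its median ratio (2698 transcripts, all-gene median -0.07), and without PL 2 (all-gene median -0.29).

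Levels of the 8 genes spanned more than 2 orders of magnitude. Over the 15 samples, ACTA2, smooth muscle alpha actin (Sscrofa11.1 chr14:100868145-100886732), averaged 1170 units and stood at the 99.3 percentile of 14958 reference genes. TAGLN, the actin-binding protein transgelin (chr9:44561756-44567385), averaged 474.5 units, CNN1, the actin-binding protein calponin (chr2:70183370-70190756), 155.5 units, and KRT5 (chr5:17862047-17868397) 120.9 units. These 3 lay at the 98.9, 97.3 and 96.4 percentiles. MYLK (chr13:136509878-136809674) averaged 37.7 units and OXTR (chr13:65134055-65155543) 20.5 units. The lowest were MYH11, the heavy chain of smooth muscle myosin (chr3:7002667-7143093), with 9.60 units, and TP63 (chr13:127115990-127347082), with 6.97 units. Luminal keratins were measured beside them, with stage means of 111.4 to 298.5 units for KRT8 and 30.4 to 94.3 units for KRT18.

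**Figure D1:**
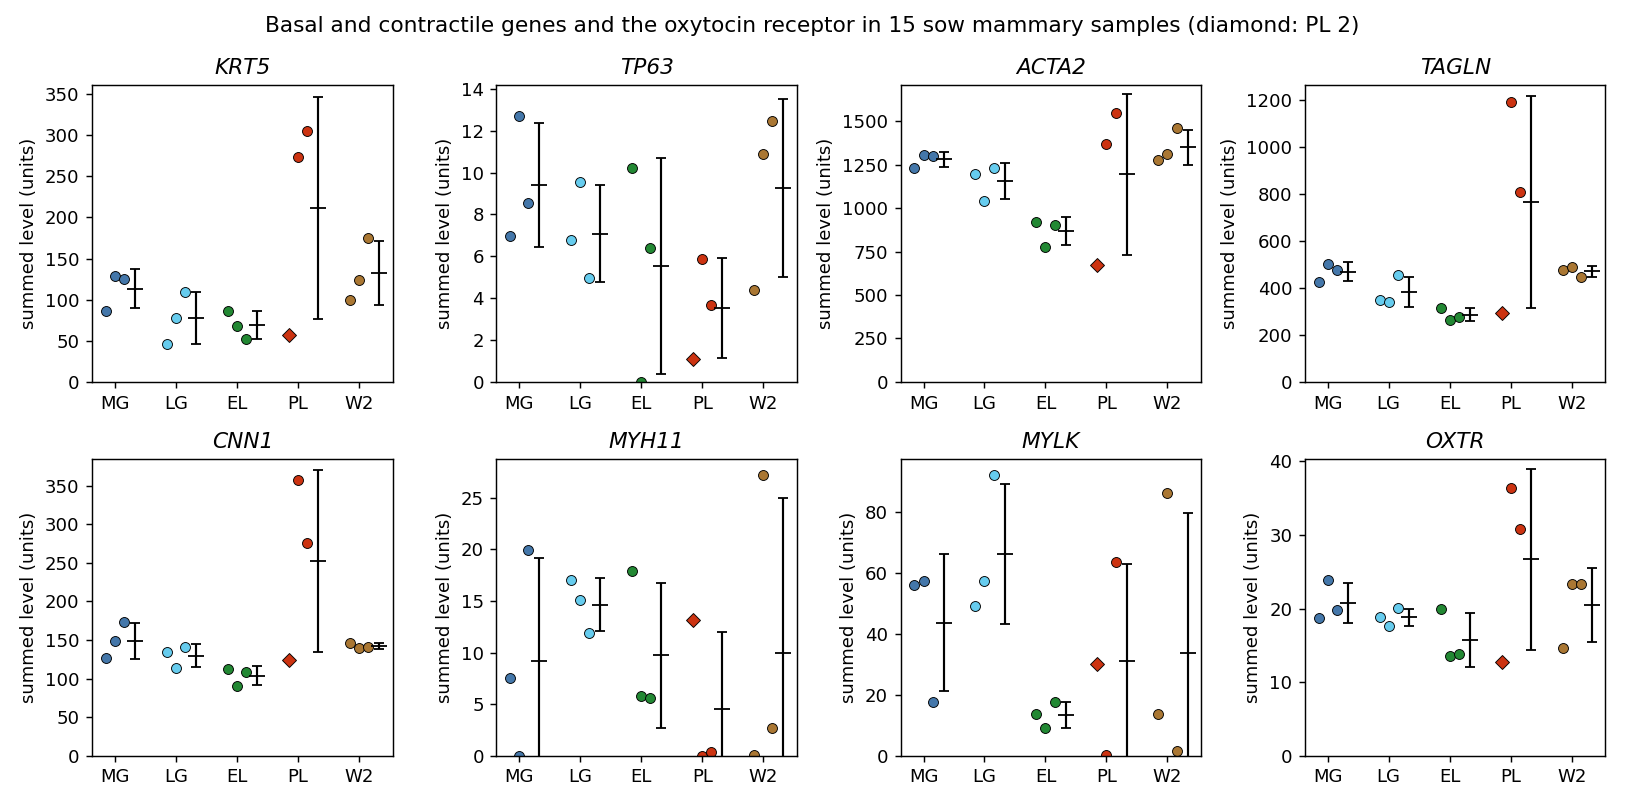
Summed level in units (vertical axis, linear) of 8 genes by stage (horizontal axis), with a point per sample, PL 2 as a diamond, and the mean ± SD of 3 samples beside them; bars that pass below 0 are drawn to the axis. In KRT5, TAGLN, CNN1 and OXTR, PL 3 and PL 6 lie above all other samples while PL 2 does not; MYH11 and MYLK range from near 0 to high levels within PL and within W2.

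KRT5, CNN1, TAGLN and OXTR had their highest levels at peak lactation, in 2 of its 3 samples, and TP63, MYH11 and MYLK did not share this pattern. Across the 5 stages, 0 of the 8 genes passed the moderated F test of limma at an adjusted p below 0.05, against 18.3% of all genes; CNN1 came nearest (adjusted p = 0.095), and 1 gene passed unadjusted. In PL against the other 4 stages, 1 of the 8 genes passed, which was CNN1. Of all genes, 30.3% passed in that comparison, 3.03% as higher and 27.3% as lower. After median ratio scaling 5 of the 8 genes passed as higher (KRT5, ACTA2, CNN1, TAGLN and OXTR), against 7.41% of all genes, and without PL 2 the same 5 genes passed as higher, against 4.80%. No member passed as lower in either. Leaving out PL 3 or PL 6 instead left 0 genes.

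KRT5, the keratin that builds the filament network of basal cells with KRT14, measured 57.3, 273.0 and 304.6 units in PL (mean 211.7 ± 134.6, SD, n = 3). In MG it measured 86.3, 128.9 and 125.0 units, in LG 46.1, 78.0 and 109.5, in EL 86.1, 68.1 and 52.3, and in W2 99.0, 123.8 and 175.4. PL 3 and PL 6 exceeded all other samples, and PL 2 was among the lowest 3. The log2 fold change of PL against the other stages was 0.87 (SE 0.42, adjusted p = 0.14 in limma), and each step in the order of stage means, PL, W2, MG, LG and EL, joined stages whose samples overlapped. It was 1.43 after median ratio scaling (SE 0.34, adjusted p = 0.014) and 1.65 without PL 2 (SE 0.30, adjusted p = 0.0029). Keratins of skin (KRT1, KRT2 and KRT10) summed to 425.3 units in W2 6 and at most 85.5 units in any other sample; W2 6 was also the highest W2 sample for KRT5, and the part of skin in this was not tested. In PL the same sum was 1.11 to 2.54 units.

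TP63, which encodes the p63 factor that maintains basal epithelium, did not share the high values of KRT5 in PL. It measured 1.10, 5.87 and 3.67 units in PL, below or within the 4.41 to 12.7 units of MG, LG and W2. The EL samples ranged from 0.018 to 10.2 units. Its log2 fold change in PL was -0.96 (SE 0.72, adjusted p = 0.34), -0.47 after median ratio scaling and -0.40 without PL 2, and none of these passed. Without EL 4, the sample at 0.018 units, TP63 passed as lower in PL (-1.30, adjusted p = 0.035), opposite in direction to CNN1.

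CNN1 showed the clearest difference. Its PL samples measured 123.7, 357.2 and 276.1 units (mean 252.3 ± 118.5, SD, n = 3). The means elsewhere were 149.0 ± 23.2 in MG, 129.8 ± 14.8 in LG and 103.8 ± 12.0 in EL, and after weaning 142.3 ± 3.72. PL 3 and PL 6 were above every other sample, whereas PL 2 lay within the range of LG. The log2 fold change against the other stages was 0.83 (SE 0.23, adjusted p = 0.019 in limma; exact permutation p = 0.040, two-sided, where 3 against 12 samples can give 0.0022 at least). It was 1.39 after median ratio scaling (adjusted p = 0.00013) and 1.27 without PL 2 (adjusted p = 0.00013). The call was lost without PL 3 (0.51, adjusted p = 0.11) and without PL 6 (0.70, adjusted p = 0.081).

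Among the 80 tests of 8 genes in the 10 pairwise comparisons, 8 passed unadjusted in limma. Of all 26019 genes and loci, 804 (W2 against MG) to 11446 (W2 against PL) passed unadjusted in a single comparison. After adjustment 1 of the 80 tests passed, against 7.81% of all tests. It was CNN1 in PL against EL, with a log2 fold change of 1.15 (SE 0.30, adjusted p = 0.046). The PL samples, at 123.7 units or more, did not overlap with the EL samples, at 112.9 units or less, and the exact permutation p of 0.10 was the smallest that 3 against 3 samples can give. This call follows the titles of the samples. Against the samples titled MG, which the stage field names early lactation, CNN1 in PL stood at 0.64 (adjusted p = 0.13 in limma), with overlap. In PL against EL 4.62% of all genes passed, 0.776% as higher. After median ratio scaling, KRT5, ACTA2, TAGLN and OXTR passed as higher as well, against 2.61% of all genes. Leaving out any of the 14 samples other than PL 2 ended the CNN1 call, while 20 of the 80 tests passed without PL 2, against 8.61% of all tests.

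TAGLN measured 293.1, 1193 and 808.7 units in PL (mean 764.9 ± 451.5, SD, n = 3). The other stages had means of 468.6 ± 40.2 in MG, 382.5 ± 64.1 in LG and 286.0 ± 27.3 in EL, with 470.5 ± 22.6 in W2. As for CNN1, PL 3 and PL 6 were the highest of all samples and PL 2 fell within the range of EL. The log2 fold change of PL was 0.74 as deposited (SE 0.29, adjusted p = 0.071), 1.30 after median ratio scaling (SE 0.21, adjusted p = 0.0013) and 1.32 without PL 2 (SE 0.14, adjusted p = 0.00015).

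ACTA2, the most abundant of these genes, had the narrowest range, with a ratio of 2.31 between its highest and lowest sample. It measured 671.9, 1370 and 1549 units in PL, 1232, 1308 and 1302 in MG, 1197, 1040 and 1231 in LG, 921.1, 775.8 and 904.5 in EL, and 1275, 1313 and 1462 in W2. The lowest sample of all was PL 2 and the highest PL 6, and all EL samples lay below those of MG, LG and W2. Its log2 fold change in PL was -0.02 as deposited (SE 0.19, adjusted p = 0.93), 0.54 after median ratio scaling (SE 0.10, adjusted p = 0.0039) and 0.35 without PL 2 (SE 0.09, adjusted p = 0.019), so its direction depended on the scaling and on PL 2.

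MYH11 and MYLK, the myosin heavy chain and the kinase that switches smooth muscle myosin on, did not follow the actin-binding genes. MYH11 measured 13.2, 0.010 and 0.32 units in PL, and PL 2 was the highest of the 3. It was near 0 in MG 3 (0.0044 units) and W2 2 (0.053 units) too, and reached 27.2 units in W2 3. MYLK measured 30.1, 0.12 and 63.6 units in PL, 13.8, 86.5 and 1.37 in W2, 56.1, 57.3 and 17.7 in MG, 49.1, 57.3 and 92.4 in LG, and 13.7, 8.99 and 17.6 in EL. Within W2 alone both genes ranged from near 0 to close to or at their highest level. In PL against the other stages MYH11 had a log2 fold change of -1.92 (SE 1.25, adjusted p = 0.27) and MYLK of -1.27 (SE 1.22, adjusted p = 0.46).

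OXTR, the receptor itself, stayed between 13.5 and 23.8 units outside peak lactation. It measured 18.8, 23.8 and 19.8 units in MG, 18.8, 17.6 and 20.0 in LG, 20.0, 13.5 and 13.8 in EL, and 14.7, 23.4 and 23.3 in W2. In PL it measured 12.8, 36.5 and 30.8 units (mean 26.7 ± 12.4, SD, n = 3). PL 3 and PL 6 were the highest samples and PL 2 the lowest. Every pair of neighbouring stages in the order of means (PL, MG, W2, LG, EL) overlapped. As deposited, the log2 fold change of PL was 0.38 (SE 0.26, adjusted p = 0.30; exact permutation p = 0.18, two-sided). It passed after median ratio scaling (0.93, SE 0.17, adjusted p = 0.0036) and without PL 2 (0.83, SE 0.19, adjusted p = 0.011).

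**Figure D2:**
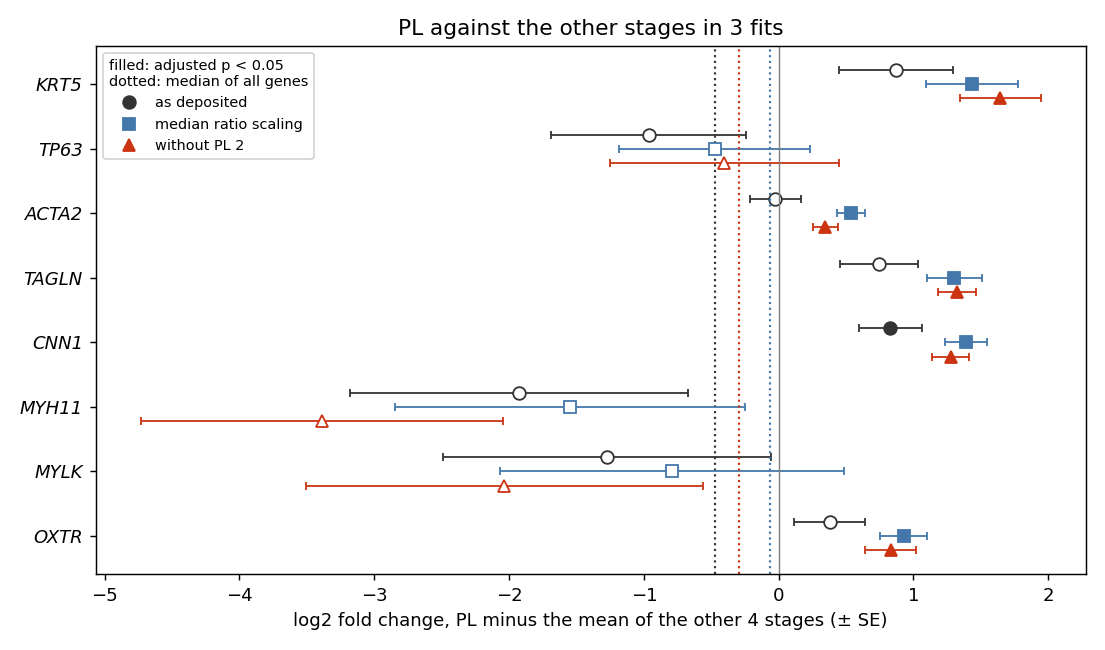
Log2 fold change of PL against the mean of the other 4 stages with its SE (horizontal axis) for 8 genes (vertical axis) in 3 limma fits, with filled symbols for an adjusted p below 0.05 and dotted lines at the median of all genes (-0.47 as deposited, -0.07 after median ratio scaling, -0.29 without PL 2). CNN1 is filled in all 3 fits; KRT5, TAGLN, OXTR and ACTA2 are filled in the latter 2, and TP63, MYH11 and MYLK in none.

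A ratio between genes of the same sample does not depend on how libraries are scaled. Per 100 units of ACTA2, CNN1 measured 18.4, 26.1 and 17.8 units in PL 2, PL 3 and PL 6, and 9.59 to 13.3 units in the other 12 samples. All PL samples, PL 2 included, lay above all others. For TAGLN the PL samples measured 43.6, 87.1 and 52.2 units per 100 units of ACTA2, again above the 29.2 to 38.6 units elsewhere. KRT5 did so in 2 of the 3 samples only, with 8.53, 19.9 and 19.7 units against 3.85 to 12.0 elsewhere. OXTR, with 1.90, 2.66 and 1.99 units in PL, overlapped with EL 3 (2.17 units). Per 100 units of the luminal keratins KRT8 and KRT18 together, the order differed. All PL samples were above all others for KRT5 (59.8 to 90.2 units, against at most 54.2) and TAGLN (239.5 to 305.9, against at most 228.9). For CNN1, PL 3 (79.5) and PL 6 (81.8) lay below EL 6 (89.4), and for OXTR they lay (8.11 and 9.12) below all EL samples (10.8 to 11.4). These ratios were computed after the levels were known and carry no test.

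**Figure D3:**
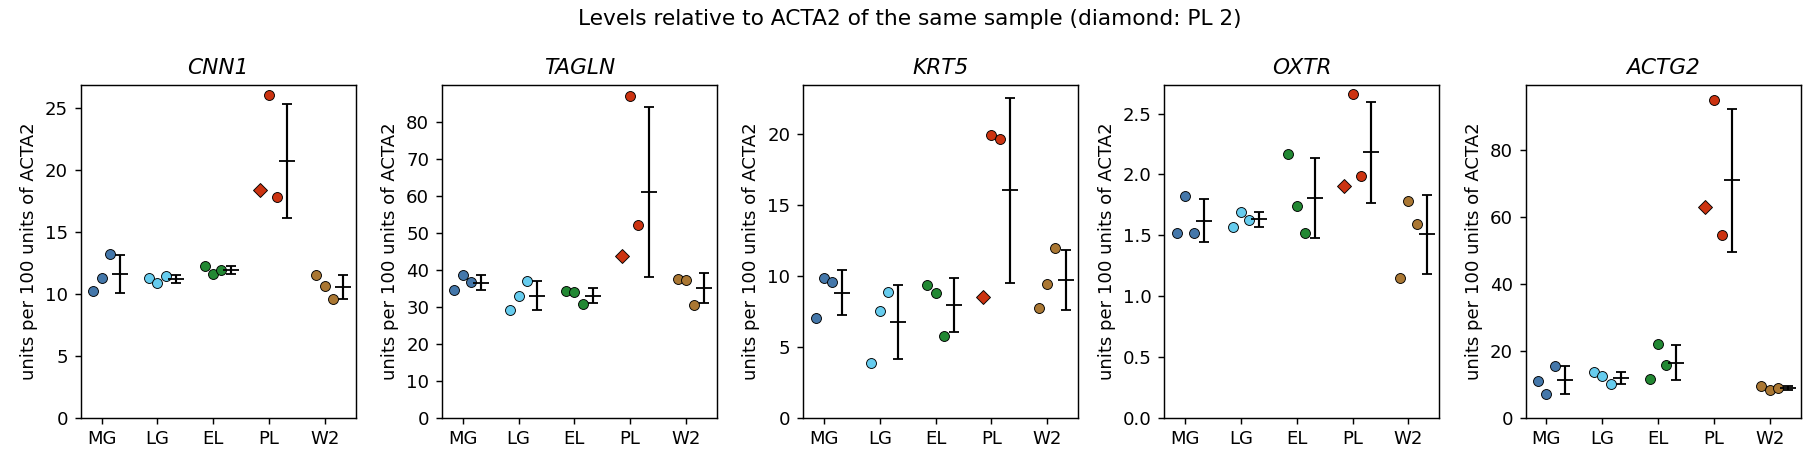
Units per 100 units of ACTA2 in the same sample (vertical axis, linear) by stage (horizontal axis) for 4 of the genes and for ACTG2, with a point per sample, PL 2 as a diamond, and the mean ± SD of 3 samples. For CNN1, TAGLN and ACTG2 all 3 PL samples lie above all others; for KRT5 PL 2 does not, and for OXTR PL overlaps with EL.

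After weaning, the comparison of W2 with PL asks whether the contractile layer changes as involution begins. As deposited 0 of the 8 genes passed, against 32.8% of all genes, whose median log2 fold change was 0.68. Unadjusted, 1 of the 8 passed in limma, against 11446 of 26019 genes and loci. CNN1 had a log2 fold change of -0.69 (SE 0.30, adjusted p = 0.091), TAGLN of -0.48, KRT5 of -0.38, OXTR of -0.28 and ACTA2 of 0.26. After median ratio scaling 4 genes passed as lower in W2, against 5.56% of all genes: CNN1 (-1.42), TAGLN (-1.21), OXTR (-0.99) and ACTA2 (-0.47). Without PL 2, KRT5 (-1.16), CNN1 (-1.14), TAGLN (-1.06) and OXTR (-0.73) passed as lower, against 3.88% of all genes, and ACTA2 did not (-0.11, adjusted p = 0.49).

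Lactation (EL and PL) against gestation (MG and LG) gave 0 of 8 genes, against 20.8% of all genes, whose median was -0.40. At an unadjusted p below 0.05 in limma 0 of the 8 passed, against 9600 of 26019 genes and loci. MYLK had the largest difference, with a log2 fold change of -2.07 (SE 1.09, adjusted p = 0.19; exact permutation p = 0.037, two-sided), and TP63 measured -1.29 (SE 0.65, adjusted p = 0.17). CNN1 passed as higher after median ratio scaling (0.57, adjusted p = 0.028), against 3.11% of all genes, and without PL 2 (0.38, adjusted p = 0.030), against 2.72%. With MG and EL exchanged, as the stage field of the records has them, TP63 stood at 0.22 and OXTR at 0.39. KRT5 then stood at 0.96, TAGLN at 0.75 and CNN1 at 0.67. These 3 passed unadjusted in limma, and 0 of the 8 genes passed adjusted. After median ratio scaling CNN1 passed (0.76, adjusted p = 0.027). KRT5 (1.345, adjusted p = 0.014) and CNN1 (0.90, adjusted p = 0.0017) passed without PL 2 under the exchange. So did TAGLN (1.04, adjusted p = 0.0009) and ACTA2 (0.45, adjusted p = 0.0082). Shares of all genes under the exchange are not given here. Under the titles OXTR was at -0.02 as deposited (SE 0.24, adjusted p = 0.97 in limma), above the all-gene median of -0.40. After median ratio scaling it was at 0.38 (SE 0.16, adjusted p = 0.18). Neither difference between gestation and lactation passed with 6 samples against 6.

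EL had the lowest mean of KRT5, ACTA2, CNN1, TAGLN, MYLK and OXTR. In 5 genes (KRT5, ACTA2, MYLK, CNN1 and TAGLN) each EL sample lay below each MG sample, as in 27.5% of all genes. In 4 genes (KRT5, ACTA2, CNN1 and TAGLN) each W2 sample lay above each EL sample, as in 35.5% of all genes. The median log2 fold change of all genes was -0.34 in the former comparison and 0.45 in the latter. None of the 8 genes passed limma in either, and 1 passed unadjusted in each (ACTA2). Of 26019 genes and loci, 4139 passed unadjusted in the former comparison and 6532 in the latter. The largest step of ACTA2, from EL to W2, was 0.64 (SE 0.24, adjusted p = 0.14). These directions follow the titles of the samples, not the stage field.

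Single transcripts gave 180 tests, for 18 transcripts in the 10 pairwise comparisons. Of these 0 passed at an adjusted p below 0.05 and a log2 fold change of at least 2 in size, against 0.629% of all tests. At an unadjusted p below 0.05 in limma 18 passed, and the unadjusted share over all transcripts is not given here. KRT5 (XM_003126173.4), MYH11 (XM_021086165.1) and OXTR (XM_005669742.3) each had 1 transcript in the table. ACTA2 was spread over 3, with NM_001164650.1 holding 57.0% of the units and 44.0% to 68.7% by sample. TAGLN was mostly NM_001244150.1 (68.0%, and 49.2% to 98.7% by sample). CNN1 was nearly all NM_213878.1 (95.1%), which measured 123.7, 349.6 and 276.0 units in PL.

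MYLK and TP63 changed transcript from sample to sample. Of the 12 annotated MYLK transcripts 4 were in the table. The main one, XM_021070241.1, held 63.0% of the units over all samples but was listed at 0 in 8 of 15, among them all EL samples, PL 2 and PL 3. XM_021070232.1 was above 0 in MG 3 alone, at 30.0 units. For TP63, with 2 of 9 annotated transcripts in the table, XM_021070046.1 held 89.2% of the units, and XM_021070042.1 was at 0 in 13 samples but held all the TP63 units of EL 3 (10.2) and PL 2 (1.10). Transcripts assembled by the authors carry no gene name, so sums may miss part of a gene, and an exact 0 may be an estimate that moved to another transcript.

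**Figure D4:**
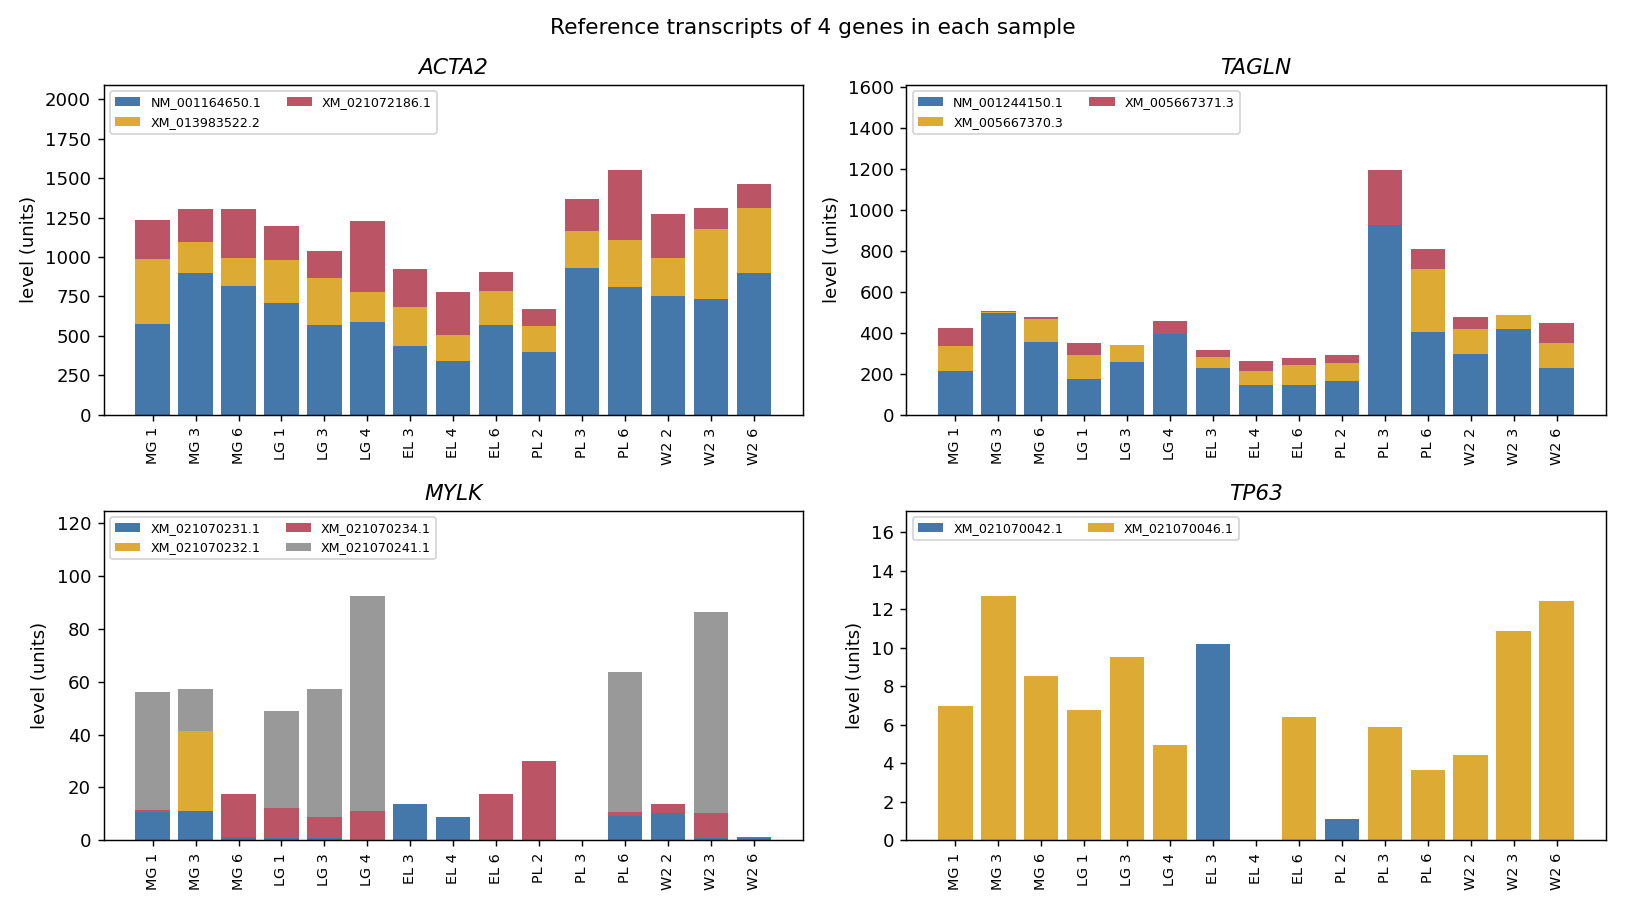
Level in units (vertical axis, linear) of each reference transcript of ACTA2, TAGLN, MYLK and TP63, stacked, in each of 15 samples (horizontal axis). The 3 ACTA2 transcripts are present in every sample, whereas the transcript XM_021070241.1 of MYLK is missing in 8 samples and TP63 comes from a different transcript in EL 3 and PL 2.

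Over the 15 samples, KRT5, ACTA2, CNN1, TAGLN and OXTR varied together, while TP63, MYH11 and MYLK did not follow them. As a description over samples that share libraries and scaling, the 10 pairs of the former had Pearson's r of 0.65 to 0.96 between log2 values and Spearman's rho of 0.73 to 0.94. The highest was CNN1 with TAGLN (r = 0.96, rho = 0.94). With the stage means removed the 10 pairs had r of 0.78 to 0.96, and without the 2 samples farthest from the median 0.56 to 0.87. The 18 pairs that involve TP63, MYH11 or MYLK had r of -0.62 to 0.61.

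**Figure D5:**
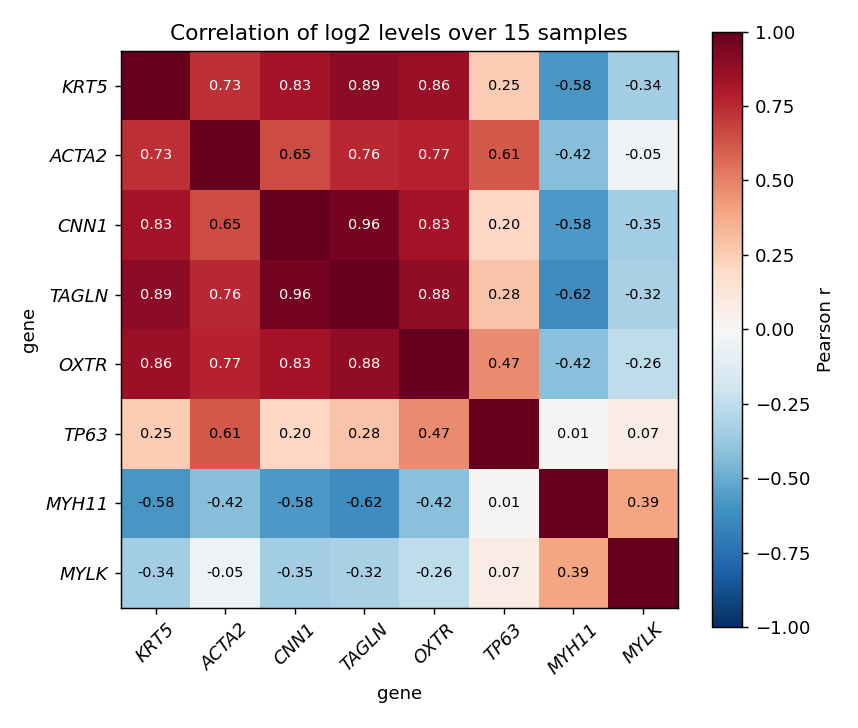
Pearson's r of log2(value + 0.5) over 15 samples for each pair of 8 genes (both axes), with blue for negative and red for positive values. The block of KRT5, ACTA2, CNN1, TAGLN and OXTR holds values of 0.65 to 0.96, and the MYH11 row is negative against all 5 of them.

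The genes whose pattern was most like that of OXTR, among 9345 reference genes that averaged 5 units or more in some stage, were COL17A1 (r = 0.93), GGH (0.93), DIMT1 (0.92), SRXN1 (0.92) and RARRES1 (0.92). COL17A1, the transmembrane collagen of hemidesmosomes, which anchor basal cells to the basement membrane, measured 48.2, 184.5 and 137.7 units in PL and 46.1 to 101.4 units elsewhere. It was also among the 5 genes nearest to KRT5, with ELOVL7 (0.93), PDIA5 (0.92), COL17A1 itself at 0.91, MCL1 (0.91) and LOXL1 (0.90); KRT5 was used here in place of KRT14, a choice made after KRT14 was found to be missing. Nearest to ACTA2 were TRIM8 (0.96), CAPN2 (0.95), LGALS1 (0.95), SNX8 (0.95) and COPS8 (0.95). All these are Pearson's r of log2 values over 15 samples.

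Among other genes of smooth muscle contraction, ACTG2 and TPM2 passed as higher in PL and CNN3 as lower. Of 30 listed genes, 24 were measured. In PL against the other stages 2 passed as higher, against 3.03% of all genes, and 1 as lower, against 27.3%. The median log2 fold change of the list was 0.01, against -0.47 for all genes. After median ratio scaling 11 passed as higher, against 7.41% of all genes, and 1 as lower, against 8.97%. Without PL 2, 8 passed as higher, against 4.80%, and 1 as lower, against 16.6%. The 2 higher genes were ACTG2, smooth muscle gamma actin (log2 fold change 2.55, adjusted p = 9.5e-05), and TPM2, the beta tropomyosin that winds around actin (0.72, adjusted p = 0.024). TPM2 measured 176.9, 485 and 374.9 units in PL and 145.4 to 226 units elsewhere, so only PL 3 and PL 6 lay above the other stages. The lower gene was CNN3, the calponin of non-muscle cells (-1.55, adjusted p = 0.0013).

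ACTG2 measured 424.0, 1304 and 847.5 units in PL and 93.8 to 202.4 units in the other 12 samples. The PL samples did not overlap with the others, PL 2 included. Per 100 units of ACTA2 it measured 63.1, 95.2 and 54.7 units in PL and 7.17 to 22.0 units elsewhere. ACTA2 and ACTG2 encode near-identical actins, and whether reads were shared between these genes was not tested. Their sum was 1096, 2674 and 2397 units in PL and 946.5 to 1590 units elsewhere.

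In the list of basal identity and adhesion, S100A2 and KRT6A passed as higher. Of 26 genes 25 were measured. As deposited 2 were higher, against 3.03% of all genes, and 7 lower, a share close to the 27.3% of all genes. The median was -0.53, against -0.47. After median ratio scaling 6 were higher, against 7.41% of all genes, and 3 lower, against 8.97% (median -0.05). Without PL 2, 4 were higher, against 4.80%, and 5 lower, against 16.6%. S100A2, a calcium-binding protein of basal cells, measured 66.9, 446.1 and 255.7 units in PL and 11.5 to 43.9 units elsewhere, without overlap (log2 fold change 2.94, adjusted p = 0.00079). KRT6A, which belongs to a family of near-identical keratins between which reads may be shared, also passed as higher (1.53, adjusted p = 0.0034). It measured 7.17, 10.7 and 7.45 units in PL and 0.71 to 4.09 units in MG, LG and W2. In EL it measured 4.93, 10.2 and 6.86 units, which overlapped with PL. Among those that passed as lower were DSP (-1.84, adjusted p = 0.030) and DSC3 (-1.41, adjusted p = 0.0012), parts of desmosomes, and SNAI2, a transcription factor of basal cells (-1.61, adjusted p = 0.0012). DSP, at 2.83 units in PL 2 and 40.1 and 37.5 in the other 2 PL samples, did not pass without PL 2 (-0.66, adjusted p = 0.12).

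The genes listed for oxytocin receptor signalling, which include OXT, AVPR1A and LNPEP, lay near the background. Of 24 genes 23 were measured. As deposited 0 passed as higher, against 3.03% of all genes, and 7 as lower, a share close to the 27.3% of all genes. The median of the list, -0.46, was close to -0.47. After median ratio scaling 2 were higher, PRKCA (0.92) and LNPEP (1.15), against 7.41% of all genes, and 2 lower, ARRB2 and CALM2, against 8.97%. Without PL 2, 1 was higher (PRKCA), against 4.80%, and 4 lower, against 16.6%. LNPEP, at 9.49 units in PL 2 and 4.66 and 3.87 in PL 3 and PL 6, did not pass without PL 2 (0.28, adjusted p = 0.40). The 5 with the largest change among the 7 were ARRB2 (-1.30, adjusted p = 0.0019) and ARRB1 (-0.82, adjusted p = 0.020), arrestins that switch receptors off, ITPR2, a calcium channel of the endoplasmic reticulum (-1.29, adjusted p = 0.0022), PLCB1, a phospholipase C (-1.07, adjusted p = 0.013), and CALM2, a calmodulin gene (-0.88, adjusted p = 0.0013). PLCB1 (adjusted p = 0.092 and 0.083) and ARRB1 (0.24 and 0.11) passed neither after median ratio scaling nor without PL 2, and ITPR2 did not pass after scaling (0.054).

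Markers of other cells that use the same contractile genes were measured beside them. All 8 markers of vascular mural cells were measured. In PL 0 passed as higher, against 3.03% of all genes, and 5 as lower, against 27.3%. The 5 were MCAM (-1.49), NOTCH3 (-1.18), RGS5 (-0.92), PDGFRB (-0.82) and CSPG4 (-0.71). DES alone had a value above 0 (0.08, adjusted p = 0.86 in limma). The summed level of all 8 was 61.1 to 88.6 units in PL, against 136.8 to 171.7 in MG, 132.8 to 151.7 in LG and 101.4 to 132.8 in EL. In W2 it was 164.7 to 169.8 units. The sum, a share of the library, was lowest in PL, where the median log2 fold change of all genes was -0.47. The part of mural cells in the levels of CNN1, TAGLN and ACTG2 was not tested. After median ratio scaling 2 of the 8 were lower (MCAM and NOTCH3), against 8.97% of all genes. Without PL 2, 3 were lower (these and RGS5), against 16.6%.

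For other cell types the counts in PL were as follows. Of all genes, 3.03% passed as higher and 27.3% as lower as deposited. The shares were 7.41% and 8.97% after median ratio scaling, and 4.80% and 16.6% without PL 2. Of 7 luminal epithelial markers measured of 8, 0 were higher and 1, CDH1, lower (-0.66, adjusted p = 0.0498). CDH1 did not pass after median ratio scaling (-0.10, adjusted p = 0.68), where EPCAM passed as higher (0.60, adjusted p = 0.019), nor without PL 2 (-0.20, adjusted p = 0.27). Without PL 2, KRT8 (0.62, adjusted p = 0.046) and KRT18 (0.79, adjusted p = 0.030) passed as higher, so these luminal keratins moved with KRT5, CNN1, TAGLN and OXTR in that fit, and their part in those results was not tested. Of 4 endothelial markers measured of 6, KDR alone was lower (-1.30). All 6 fibroblast markers were measured, and 4 were lower: LUM (-1.58), COL3A1 (-1.36), DCN (-1.07) and PDGFRA (-0.88). LUM and COL3A1 also passed after median ratio scaling and without PL 2, whereas DCN and PDGFRA passed in neither. Of 3 adipocyte genes measured of 5, LEP was higher (3.46) and FABP4 lower (-1.03, not passing after scaling), and of 3 skin keratinocyte genes measured of 6, 0 passed. The 7 milk protein genes included 5 that were higher. Of 6 skeletal muscle genes, MYH2 and MYH1 were measured, and both were higher, at a summed 3.10 to 14.8 units in PL and under 1 unit elsewhere. This moved with CNN1, TAGLN and ACTG2, and its part in their levels was not tested.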

How the data were processed

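The authors trimmed the reads with Trimmomatic, aligned them to Sscrofa11.1 with HISAT2 and quantified transcripts with StringTie. They deposited values called FPKM, kept where a transcript reached 0.5 in at least 1 stage; whether the deposited values include their RUVs correction is not given in the sources used here. Since library totals enter each value, a sample rich in milk protein transcripts lowers all its other values.

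Reference identifiers (32726 transcripts) were joined to genes through RefSeq and summed; 29047 assembled transcripts were kept as 11061 loci. Log2(value + 0.5) was fitted with limma 3.58.1 (R 4.3.3, trended variance), all 5 stages together, without a filter, with Benjamini-Hochberg adjustment over 26019 genes and loci or 61773 transcripts; called means an adjusted p below 0.05. The authors' count-based test could not be used, as no counts were analysed. Single genes were also tested by exact permutation (scipy 1.17.1). Fits were tested on simulated data with changes planted in PL against the other stages. For genes, 42 of 100 planted log2 changes of 1 were called, and 82 of 100 changes of 2. For transcripts these were 26 and 66 of 100, so a change of 1 was missed more often than called. Depth per library was not analysed here, so p-values rest on the spread between samples.

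Named genes were the members, up to 5 called genes per list by size of change in PL against the other stages, and the 5 most like genes for OXTR, ACTA2 and KRT5 (in place of KRT14, which matched no transcript); counts of 5 or fewer and the ratios to ACTA2 were described after their values were seen. Members and lists were chosen with earlier results of these data known. Replicate numbers did not pair samples: deviations from stage means correlated at -0.01 on average over 19 pairs of the same number and at 0.0026 over 71 others. Alternatives were pseudocounts of 0.1 and 1, a filter at a stage mean of 1 unit, quantile normalization, median ratio scaling (over transcripts that reach 10 units in all 15 samples), the total without the 20 highest transcripts, all 6 samples per stage, the near-identical samples as 1 further sample, a replicate block, the transcript with the highest mean, the compared stages alone, MG and EL exchanged, and each sample left out.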

Additional observations from a re-analysis of the deposited data

How the results depend on the processing

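The number of the 8 genes called across the 5 stages was 0 as deposited, 6 with all 6 samples per stage, 4 after quantile normalization, 4 after median ratio scaling, 3 with the total without the 20 highest transcripts, 4 with the near-identical samples as 1 further sample, and 0 to 5 with a sample left out. The pairwise gene calls went from 1 to 17 after quantile normalization, 18 after median ratio scaling, 15 with the total without the highest transcripts, 31 with all 6 samples, 10 with the near-identical samples as 1 further sample, 0 with the replicate block, 0 with the 2 compared stages alone, 0 with a log2 fold change of at least 2 also demanded, and 0 to 20 with a sample left out. For PL against the other stages the count of 1 became 5, 5 and 5 under the 3 scalings in that order, 6 with all 6 samples, 3 with the near-identical samples as 1 further sample, 2 with the replicate block and 0 to 5 with a sample left out; it was 2 without EL 4, where TP63 passed as lower. For lactation against gestation the count of 0 became 1 after median ratio scaling, 1 with the total without the highest transcripts, 3 with all 6 samples and 0 to 1 with a sample left out. Transcript calls went from 0 to 23 with all 6 samples, 4 with the near-identical samples as 1 further sample and 0 to 1 with a sample left out (1 without LG 1 and 1 without PL 2). Counts with all 6 samples treat near-identical values as replicates. The near-identical samples as 1 further sample add a value close to the stage mean, within 0.741% of it at the median. This narrows the spread by construction, so the higher counts under that setting are no independent result. After median ratio scaling 7.41% of all genes passed as higher in PL against the other stages. Without PL 2, 8.61% of all pairwise tests passed. For quantile normalization, the total without the highest transcripts and the settings with further samples, no share over all genes is given here. The rises in these counts are therefore not read as particular to the 8 genes. The causes of these changes were not tested.

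Directions turned for single genes as follows, in log2 fold changes. For PL against the other stages, ACTA2 was at 0.80 after quantile normalization, 0.54 after median ratio scaling, 0.50 with the total without the highest transcripts, 0.018 with all 6 samples, 0.11 with the replicate block and 0.082 for its highest transcript, and -0.26 to 0.35 with a sample left out; MYLK was at -2.57 to 0.78 with a sample left out. For W2 against PL, ACTA2 was at -0.57, -0.47 and -0.39 under the 3 scalings and -0.11 to 0.49 with a sample left out, and MYLK at -0.32, -0.32 and -0.14, and -1.74 to 1.72. With a sample left out, KRT5 was at -1.16 to 0.043, MYH11 at -0.42 to 2.50 and OXTR at -0.73 to 0.0077. For lactation against gestation, OXTR was at 0.38, 0.38 and 0.36 under the 3 scalings, 0.035 with all 6 samples, 0.0078 with the near-identical samples as 1 further sample, 0.13 with the replicate block, 0.39 with MG and EL exchanged, and -0.16 to 0.21 with a sample left out. ACTA2 was at 0.19, 0.11 and 0.090 under the 3 scalings and 0.27 with MG and EL exchanged, TP63 at 0.22 with them exchanged, and TAGLN at -0.19 for its highest transcript and -0.18 to 0.33 with a sample left out. Of the other values for single genes, 522 kept direction and side of the threshold, 44 passed it and 2 fell short of it (CNN1 without PL 3 and without PL 6). The replicate block added KRT5 in PL against the other stages (1.16, adjusted p = 0.042) and ended the CNN1 call in PL against EL; the numbers do not pair the samples.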

Other observations

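On chromosome 12 of Sscrofa11.1, the annotation lists 6 loci without a gene symbol between EIF1 and KRT19. They were looked up by position after KRT14 and KRT17 had been found to match no transcript, and no keratin name is given to any of them here. Of the 6, 5 were in the table with 1 transcript each. LOC100737113 (chr12:21024395-21029875) measured 83.1 to 338.0 units in PL (mean 222.5 ± 129.2, SD, n = 3), against 18.4 to 47.7 units in the other 12 samples, without overlap. LOC110255312 (chr12:21074965-21079393) averaged 44.4 ± 33.9 units in PL, 25.3 ± 10.7 in W2, 14.6 ± 4.44 in MG and 15.7 ± 5.45 in LG. In EL it measured 7.98 to 15.2 units, and its PL samples, from 13.5 to 80.7 units, overlapped with the others. LOC110255272 (chr12:21037349-21041743) averaged 13.4 ± 11.4 units in PL and 11.6 ± 10.1 in W2. LOC100737030 stayed below 1.19 units in every sample, and LOC100515685, annotated as a pseudogene, below 7.23 units. No test was run on these loci.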
